A study of Homo sapiens with 24 samples.

Results

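The replication-dependent histone genes were taken as every gene whose name on the arrays began with HIST1H, HIST2H, HIST3H or HIST4H, the older symbols of this family. The rule found 70 of the 21364 genes on the arrays, and it used names alone, not measured values. The 70 genes were 6 linker H1 genes, 17 H2A, 19 H2B, 13 H3 and 15 H4 genes. The name rule also took in HIST1H2APS1 (H2A) and HIST2H2BA (H2B), whose RefSeq symbols, H2AC2P and H2BP1, are those of pseudogenes. They are counted with their classes. The series held 24 two-colour arrays from 7 human cancer cell lines, with 1 array for each cell line and treatment. On every array the RNA of treated cells was labelled with Cy5 and that of control cells with Cy3, and the dyes were never swapped, so a dye effect on a probe cannot be told apart from the treatment. All values are log2 ratios of treated over control, in which 1 stands for a ratio of 2.

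The cell lines were the prostate cancer lines PC3, DU145 and LNCap, the renal cell carcinoma lines A498 and 786O, and the head and neck squamous cell carcinoma lines FaDu and SAS. Genistein, a soy isoflavone, was given to PC3 and DU145 and compared, per the labels, with no treatment. The study's methods describe cells given the DMSO vehicle as control, and which of these the control channel holds is not settled here. Wogonin, a plant flavone, was given to SAS and FaDu and compared with DMSO. The chemokine CXCL10 was given to 786O for 12 h and for 24 h, each compared with no treatment. Small interfering RNAs (siRNAs) against CAV2 (A498, 786O), LAMB3 (FaDu, SAS) and GOLM1 (DU145, PC3) were compared with control siRNA. The microRNAs miR-145 (PC3, DU145, LNCap), miR-143 (DU145, PC3), miR-27b (786O and A498, and separately PC3), miR-23b and miR-24 (PC3), miR-29a (SAS) and miR-375 (FaDu) were transfected and compared with control miRNA. The labels do not say whether the 3 arrays of miR-23b, miR-24 and miR-27b in PC3 shared a control RNA, and their values are given side by side only.

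Histone proteins wrap DNA into nucleosomes: H2A, H2B, H3 and H4 form the core, and H1 binds the linker DNA. The replication-dependent genes lie in clusters, mostly on the short arm of chromosome 6, and are switched on together in S phase, when new DNA must be packaged. Their mRNAs are unusual among animal mRNAs in ending with a conserved stem-loop in place of a poly(A) tail. The stem-loop is bound by SLBP, and U7 snRNA guides the cut behind it. When DNA synthesis stops, these mRNAs are degraded quickly. Some of the genes also make longer polyadenylated transcripts, above all in cells that leave the cell cycle, and HIST1H1C, HIST1H2AC, HIST1H2BD, HIST1H2BK and HIST2H2BE are known for this. The labels name an amplification kit that starts from poly(A) tails, and which form of each histone transcript the probes read was not tested.

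The arrays came in 2 designs of one platform, 16 arrays on 2 slides and 8 arrays on another slide, and were analysed apart. Each array had 58717 gene spots, of which 53.2 to 67.6% in Cy3 and 54.2 to 68.9% in Cy5 were well above background. No spot was saturated. On the larger design 62 of 69 members passed the filter on low signal, and on the smaller design 64 of 70 did. The siRNA targets were lower on all 6 arrays: CAV2 by -3.80 and -3.20, GOLM1 by -3.02 and -4.15, and LAMB3 by -2.50 in FaDu but only -0.89 in SAS. Above background were 5 of 5 squamous markers in FaDu and SAS and 5 of 5 renal markers in 786O and A498, but also 4 of 5 renal and 3 of 5 squamous markers in PC3 and 3 of 5 renal markers in FaDu. Squamous markers above background were 1 of 5 in 786O and A498 and 2 of 5 in DU145 and LNCap. Renal markers were 1 of 5 in LNCap and 2 of 5 in DU145 and SAS. HOXB13, a transcription factor of the prostate, was above background on 1 of 1 LNCap, 7 of 7 PC3 and 0 of 4 DU145 arrays. It was also above background on 3 of 3 FaDu and 3 of 4 786O arrays, so this marker alone does not tell prostate lines from the others. The labels do not say whether arrays of the same treatment came from separate experiments, and the only replicates here were different cell lines. Each SE and p-value below rests on the spread between lines within treatments, pooled over the treatments of a design. It does not measure how far apart the lines of that treatment alone lie.

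The members that failed the filter were HIST1H1A, HIST1H1T, HIST1H2BA, HIST1H4G, HIST2H2BA and HIST2H4A on both designs and HIST1H2APS1 on the larger design. HIST1H1T and HIST1H2BA encode testis variants of H1 and H2B. HIST1H2BA, HIST2H2BA and HIST2H4A were well above background in 0 of 32 channels of the larger design, HIST1H4G in 1, HIST1H1T in 3, HIST1H2APS1 in 8 and HIST1H1A in 14. HIST1H2AG was on the smaller design only.

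The sequences of the probes show which end of the transcript they read, and 3 sets are printed because later results turn on them. The first set holds the histone stem-loop itself, printed with the paired stem in capitals and in genome build hg19, the build of the array annotation. A search for an inverted repeat of 6 bases around a loop of 4 bases found it in 7 of 81 member probes (8.64%) and in 681 of 42324 other probes (1.61%), and 2 of those others had the stems shown here. The seventh member probe, of HIST1H2APS1, had a different stem.
HIST1H2AI (chr6:27776420-27776445, plus strand): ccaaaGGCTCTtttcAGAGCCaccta
HIST1H2BE (chr6:26184433-26184458, plus strand): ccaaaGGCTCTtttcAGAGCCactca
HIST1H2BF (chr6:26200191-26200212, plus strand): ccaaaGGCTCTtttaAGAGCCa
HIST1H3H, dimmer probe (chr6:27778289-27778314, plus strand): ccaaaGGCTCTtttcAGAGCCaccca
HIST1H4K, dimmer probe (chr6:27798954-27798976, minus strand): caaaaGGCCCTttttAGGGCCcc
HIST2H3A (chr1:149824662-149824685, plus strand): caaaaGGCTCTtttcAGAGCCacc

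The second set concerns H4. Of the H4 probes, 9 hold the end of the coding sequence, found as TTNGGNGGN followed by a stop codon and shown in capitals, and read on into the bases behind it. A further 8 lie inside the coding sequence. The probe of HIST4H4 reaches over the coding start from the leader and that of HIST2H4A has no coordinates, so these 2 were put in neither kind. For HIST1H4D a probe of each kind exists, and they overlap by 11 bases, which are in capitals in the lines labelled inner and outer.
HIST1H4B (chr6:26027160-26027189, minus strand): ctgtacggcTTCGGCGGTTAAtcttttcgt
HIST1H4C (chr6:26104468-26104497, plus strand): tgtatggcTTCGGCGGCTGAatctaagaat
HIST1H4E (chr6:26205172-26205201, plus strand): cTTCGGCGGCTAAtgctaccgcttaaacga
HIST1H4J (chr6:27792194-27792223, plus strand): ctctacggtTTCGGTGGTTGAgcgtccctt
HIST1H4L (chr6:27840968-27840997, minus strand): ctgtatggcTTTGGCGGCTGAgtgttttac
HIST1H4D inner (chr6:26189001-26189030, minus strand): agcgccagggacgcactctTTATGGCTTCG
HIST1H4D outer (chr6:26188982-26189011, minus strand): TTATGGCTTCGgcggctgagcttacctcta

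The third set shows why single members of a class cannot always be told apart. Probes of 19 pairs of genes within a class shared 20 or more bases in a row, up to 32 for HIST1H2BD and HIST1H2BK, and the median correlation of their log2 ratios over 16 arrays was 0.94 (range -0.22 to 0.99). It was 0.55 (range -0.58 to 0.996) over the 384 pairs of a class that shared fewer bases. Over the 1488 pairs of different classes it was 0.30 (range -0.71 to 0.98). Some of those pairs, of probes that hold the stem-loop, also shared 20 or more bases. HIST1H2AI shared 23 with HIST1H2BE (correlation 0.11) and 22 with HIST2H3A (0.82), and HIST1H2BE shared 21 with HIST2H3A (-0.27). Probes that share long stretches can bind each other's transcripts, so a value of such a gene may come partly from its partners. Calls on such genes are not independent of each other. Whether probes with shorter or broken matches also bind each other's transcripts was not tested. These stretches are shared by HIST1H3F with HIST1H3H (correlation 0.98) and by HIST1H2BH with HIST1H2BL (0.98).
HIST1H3F and HIST1H3H: cgtgagatcgcgcaggacttcaagaccgac
HIST1H2BH and HIST1H2BL: aaggccgtcaccaagtacaccagctccaa

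Over all members, the array medians were lowest with genistein in DU145 (-0.68) and with the LAMB3 siRNA in FaDu (-0.53) and SAS (-0.45), and highest with miR-24 (0.48) and miR-27b (0.37) in PC3. The pooled SD of the members' median between lines of a treatment was 0.21. The median technical error that the scanner software gave a member's log2 ratio was 0.204 to 0.224 across the arrays.

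**Figure D1:**
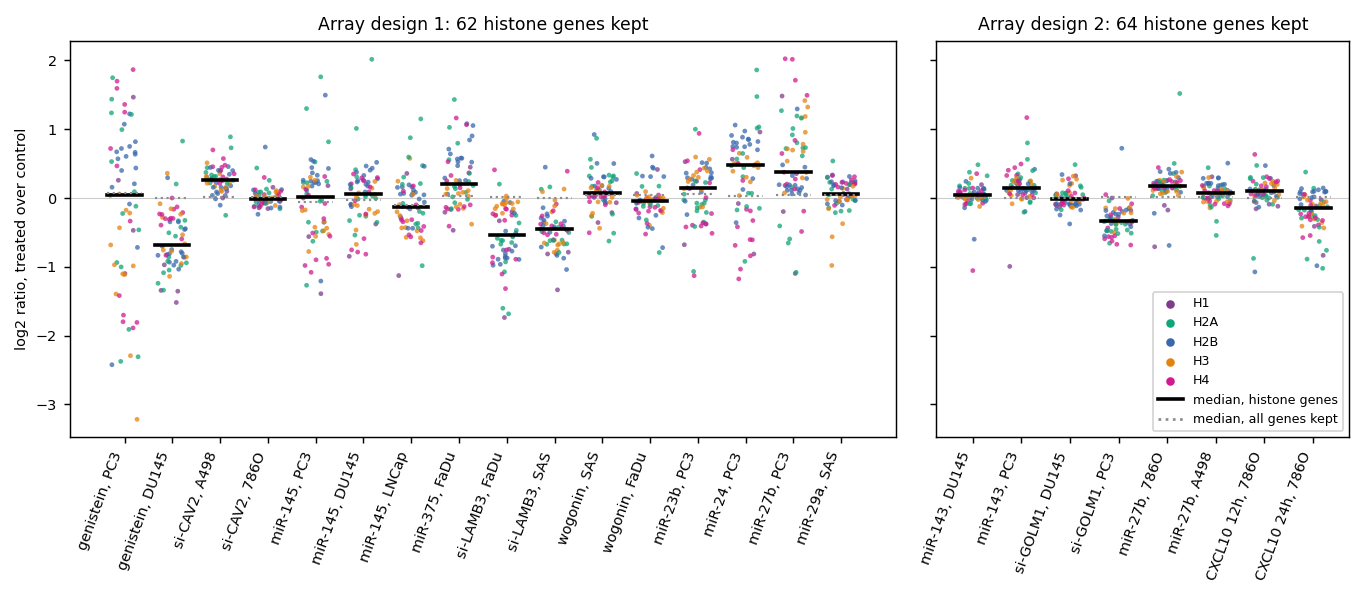
Log2 ratio (treated over control) of each histone gene kept, for each of the 24 arrays. Points are genes coloured by histone class, and the bar marks the array's median over them, which lies at -0.68 with genistein in DU145 and at 0.48 with miR-24 in PC3.

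With genistein, H3 genes were lower in both prostate lines, while H2B genes were on the whole higher in PC3 and lower in DU145. Over both lines, 13 of 62 members lay below -0.5 on both arrays, against 5.52% of all 14330 genes kept, and 8 of the 13 were H3 genes. HIST3H2A, an H2A gene of a small cluster outside chromosome 6, was the only member above 0.5 on both (1.21 in PC3 and 0.83 in DU145), against 7.66% of all genes. Without a limit on size, 28 members were below 0 in both lines and 3 above, against 27.7% and 34.1% of all genes. By limma over the lines with Benjamini-Hochberg adjustment over all genes, 11 members fell and 0 rose, where 3.77% of all genes fell and 4.55% rose.

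H3 is the core histone that carries most of the known regulatory marks on its tail. The class had its median at -0.97 in PC3 and at -0.67 in DU145. On each array 8 of 13 H3 genes lay below -0.5, against 16.4% of all genes in PC3 and 15.3% in DU145. HIST2H3A, an H3 gene of the chromosome 1 cluster, read at its stem-loop, was at -3.22 in PC3 and -0.77 in DU145, and it fell by 1.99 on average (log2, SE 0.44, limma adjusted p = 0.0338). HIST1H3B was at -2.29 and -0.86 (mean -1.58, SE 0.28, limma adjusted p = 0.0183). The PC3 values of both were far below the DU145 values, and no value was above 0.

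A further 5 H3 genes also fell, each below -0.5 in both lines. HIST1H3F was at -1.39 in PC3 and -0.95 in DU145 (limma adjusted p = 0.0141), and HIST1H3H, which shares a stretch of 30 bases with it, at -0.99 and -1.14 (0.0134). The dimmer stem-loop probe of HIST1H3H was at 0.94 in PC3 and -1.45 in DU145, so the fall in PC3 rests on the brighter probe alone. HIST1H3D was at -1.11 and -0.86 (0.0190). HIST1H3E was at -1.10 and -0.76 (0.0145), and HIST1H3A at -0.68 and -0.67 (0.0498). HIST1H3J was at -0.97 and -0.53 without passing the test. HIST1H3C, HIST1H3G, HIST1H3I, HIST2H3D and HIST3H3 lay between -0.43 and 0.36 in both lines, so the class did not move as a whole.

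H2A and H2B, the pair of core histones that sit together as a dimer at the faces of the nucleosome, differed between the lines. The H2A median lay at -0.12 in PC3 and at -0.86 in DU145, and the H2B median at 0.60 and -0.80. In PC3, 10 of 17 H2B genes lay above 0.5, against 22.1% of all genes. Among the 10 was HIST1H2BE, with signals not well above background in both channels. Below -0.5 lay 2 H2B genes in PC3, against 16.4% of all genes, and 12 of 17 in DU145, against 15.3%. The H2A and H2B genes that fell were 4. HIST2H2AC was at -2.37 in PC3 and -0.92 in DU145 (mean -1.65, SE 0.30, limma adjusted p = 0.0193), and HIST1H2BF, read at its stem-loop, was at -2.42 and -0.80 (mean -1.61, SE 0.31, limma adjusted p = 0.0221). HIST1H2AI, also read at its stem-loop, was at -1.91 and -0.51 (limma adjusted p = 0.0469), and HIST1H2AB at -1.0 and -0.86 (limma adjusted p = 0.0109). The HIST1H2AI probe shares 22 bases in a row with that of HIST2H3A (correlation 0.82), so whether these calls are of separate genes is uncertain.

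H1, the linker histone, had a median of -1.35 in DU145, where all 4 genes kept lay below -0.5, against 15.3% of all genes. In PC3 the H1 median, which includes HIST1H1B at signals not well above background, was -0.11, and it changed sign to 0.03 with normexp background correction and to 0.13 after the mean of the other treatments on the slide was subtracted. HIST1H1D lay low in both lines (-1.10 and -1.34) without passing the test. HIST1H1C was at 1.46 in PC3 and -1.52 in DU145, and HIST1H1E at 0.26 and -1.35. The limma calls with genistein depended on the lines: without the PC3 array 1 member was called, without the DU145 array 28, and when only the genistein arrays entered the fit 0. At an unadjusted p under 0.05 there were 28 of 62 members, against 26.8% of all genes.

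Of the 62 members, 14 (22.6%) lay above 0.5 in PC3 and below -0.5 in DU145 with genistein, against 3.78% of all genes that lay past these limits in opposite directions. They were HIST1H1C, 4 H2A genes (HIST1H2AC, HIST1H2AD, HIST1H2AE and HIST2H2AA4) and 9 H2B genes, and none was an H3 or H4 gene. HIST2H2AA4, an H2A gene of the chromosome 1 cluster, was at 1.75 in PC3 and -1.24 in DU145. HIST1H2BD was at 1.07 and -0.70, and HIST1H2AD at 1.24 and -1.34. The other H2B genes of the group (HIST1H2BC, BG, BH, BI, BK, BL, BM and BO) spanned 0.57 to 0.82 in PC3 and -0.98 to -0.75 in DU145. In the other 7 treatments with more than 1 line no member did this. Several of these H2B probes share long stretches (HIST1H2BD with HIST1H2BK, and HIST1H2BH, BL and BO with each other), so the count may hold fewer separate genes. With 1 array a line, the difference between the lines was not tested.

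**Figure D2:**
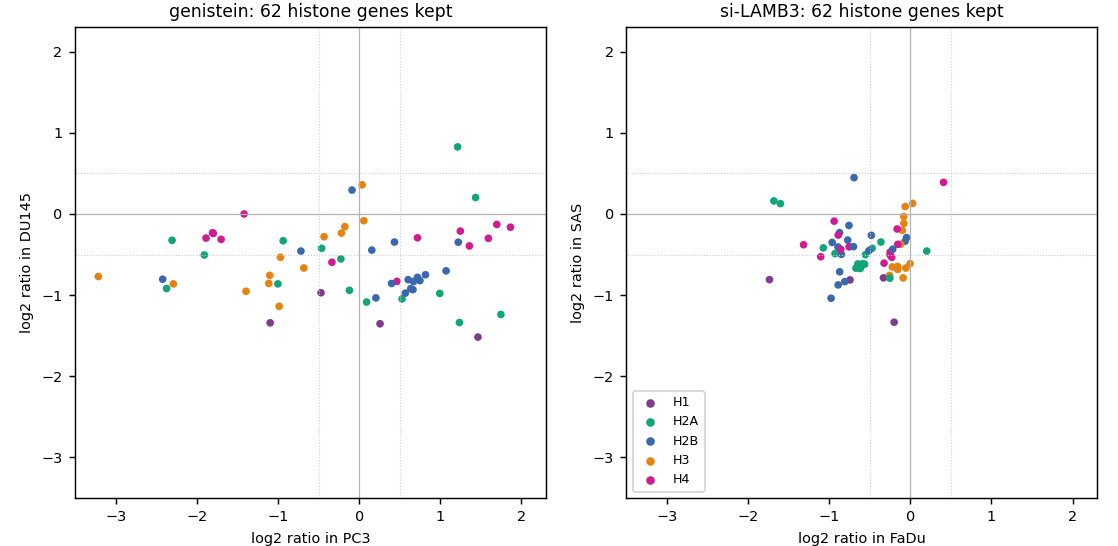
Log2 ratio of each histone gene kept in the first cell line (x axis) against the second (y axis), for genistein (PC3, DU145) and the LAMB3 siRNA (FaDu, SAS). Dotted lines mark 0.5 and -0.5, and with genistein 14 genes lie above 0.5 in PC3 and below -0.5 in DU145.

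H4, the core histone most alike among eukaryotes, had its class median with genistein at 0.47 in PC3 and at -0.29 in DU145, but its genes fell into separate ranges in PC3 by where the probe lies. This split by probe place was chosen after the values were seen and is a description. The 6 probes inside the coding sequence that were measured in both channels lay between 0.72 and 1.87 (median 1.48). The 9 probes that hold the coding end lay between -1.89 and 0.54 (median -1.15), 6 of them below -0.5. The inner probe of HIST1H4D read 1.59 and its outer probe -1.15, although they overlap by 11 bases, and their correlation over the 16 arrays was -0.17.

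Among the outer probes, HIST1H4C was at -1.89 in PC3, HIST1H4L at -1.81, HIST1H4B at -1.80 and HIST1H4E at -1.42. The outer probe of HIST1H4J (0.47) and the dimmer probe of HIST1H4K (0.54) went against the others of their kind. In DU145 the 2 kinds of probe did not part, with medians of -0.29 over 7 inner and -0.42 over 8 outer probes. In PC3 the medians of the genes' brightest probes were 1.48 and -1.61, and they were 1.43 and -1.55 with normexp and 1.45 and -1.22 after the mean of the other treatments on the slide was subtracted.

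With miR-27b in PC3 the order was turned. The inner probes lay between -0.19 and 0.37 (median 0.19), and the outer probes between -0.53 and 2.02 (median 1.30), with 7 of 9 above 0.5. With miR-145 in PC3 the medians were 0.04 and -0.90, with miR-24 in PC3 -0.42 and 0.25, and with the LAMB3 siRNA in FaDu -0.86 and -0.25. Thus, the sign of the difference between inner and outer probes was not the same on every array of the design. Which transcripts each kind of probe read was not tested.

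**Figure D3:**
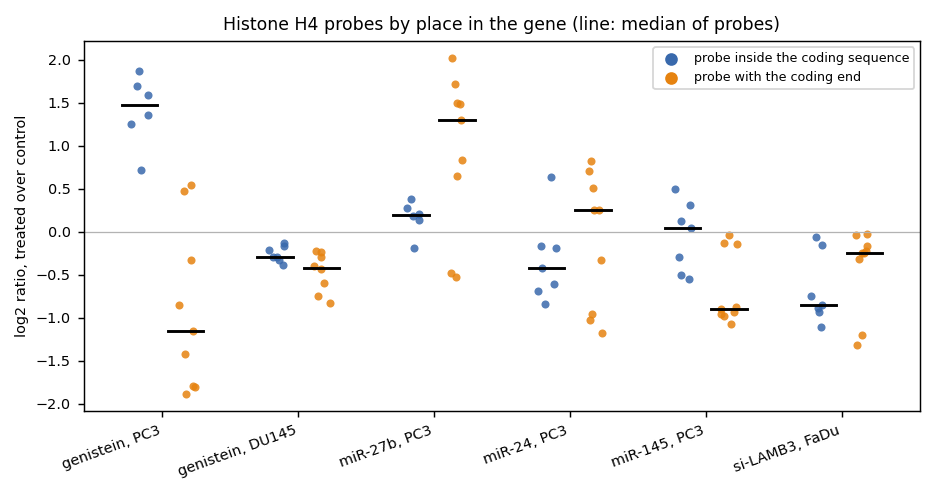
Log2 ratio of every H4 probe measured in both channels, on 6 arrays, split into probes inside the coding sequence (blue) and probes that hold its end (orange). With genistein in PC3 the blue probes lie between 0.72 and 1.87 and most orange probes lie below 0, while with miR-27b in PC3 the orange probes lie mostly above the blue.

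With the siRNA against LAMB3, a laminin chain of the basement membrane, histone genes were lower in both squamous lines. Of 62 members, 55 were below 0 in both FaDu and SAS, against 33.3% of all genes, and 2 were above 0 in both, against 35.3%. Past the limit, 14 lay below -0.5 on both arrays, against 8.44% of all genes, and 0 above 0.5, against 6.5%. The count of 14 became 30 after the slide mean was subtracted and 0 at a limit of 1.0. The 14 were 7 H2A, 4 H2B, 2 H1 genes and 1 H4 gene. By limma, 3 of 62 members fell, all of them H2A genes, and 0 rose, against 5.18% and 3.43% of all genes. The share of members that fell was thus no higher than that of all genes.

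HIST1H2AK was at -0.67 in both FaDu and SAS (SE 0.16, limma adjusted p = 0.0365), HIST1H2AH at -0.59 and -0.61 (limma adjusted p = 0.0375), and HIST1H2AB at -0.55 and -0.50 (limma adjusted p = 0.0408). HIST1H2AH and HIST1H2AK were alike over all 16 arrays (correlation 0.97) and their probes share 21 bases in a row, so whether these calls are of separate genes is uncertain. These calls were lost without the FaDu array, without the SAS array and when only the LAMB3 siRNA arrays entered the fit (0 members each), and 19 of 62 members had an unadjusted p under 0.05, against 26.7% of all genes.

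The members with the largest mean distance from 0 past the limit did not pass the test. HIST1H1C was at -1.74 in FaDu and -0.81 in SAS. HIST1H2BH was at -0.98 and -1.04, HIST1H2BB at -0.89 and -0.87, and HIST1H2BO at -0.81 and -0.83. HIST1H4K was at -1.11 and -0.53. HIST1H2BH and HIST1H2BO share 29 bases in a row (correlation 0.99) and are uncertain as separate genes. The H2B values of these genes differed little between the lines, while HIST1H1C and HIST1H4K were lower in FaDu.

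By class, H2A had medians of -0.62 in FaDu and -0.50 in SAS, H2B -0.77 and -0.40, H1 -0.54 and -0.81, and H4 -0.32 and -0.40. H3 differed from the rest in FaDu: its median was -0.09 there, with 0 of 13 genes below -0.5, and -0.61 in SAS, with 7 of 13. Of all genes, 14.9% lay below -0.5 in FaDu and 19.9% in SAS. HIST2H2AA4 was at -1.60 in FaDu and 0.13 in SAS, and HIST3H2A at -1.68 and 0.16, both picked here after their values were seen. The target LAMB3 itself was lower in FaDu (-2.50) than in SAS (-0.89). These class medians kept their sign with normexp, with centring on the median of all genes and with the slide mean subtracted.

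With miR-145, 4 members lay below -0.5 in all 3 prostate lines, against 2.45% of all genes, and 1 above 0.5, against 3.01%. HIST2H2AA4 was at 1.76 in PC3, 1.01 in DU145 and 1.15 in LNCap. HIST1H2AI was at -1.27, -0.54 and -0.98, HIST1H4B at -0.98, -0.82 and -0.54, and HIST1H3B at -0.78, -0.67 and -0.57. HIST1H4E was at -1.08, -0.59 and -0.65, but its DU145 value came from signals near background. By limma 0 of 62 members passed with miR-145, against 3.3% of all genes higher and 3.22% lower, and 19 had an unadjusted p under 0.05, against 23.9% of all genes. The count of members below -0.5 in all 3 lines was 0 with normexp, 0 with the slide mean subtracted and 2 after centring.

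The H4 median with miR-145 was -0.51 in PC3 and -0.32 in LNCap, and 0.09 in DU145, where it became -0.25 after the slide mean was subtracted. Of the 13 H4 genes, 7, 3 and 4 lay below -0.5 in PC3, LNCap and DU145. The H2B medians were 0.25 in PC3, 0.25 in DU145 and 0.06 in LNCap, and the last turned to -0.07 with the slide mean subtracted. Above 0 in all 3 lines were 21 members (19.5% of all genes) and below 0 were 22 (32.9%).

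With wogonin and the CAV2 siRNA at most 1 histone gene was past 0.5 in both lines. With wogonin the members' medians were 0.08 in SAS and -0.04 in FaDu. HIST4H4, an H4 gene that stands alone outside the clusters, was the only member below -0.5 in both (-0.505 in SAS and -0.52 in FaDu), against 4.42% of all genes, and 0 were above 0.5, against 5.53%. Above 0 in both lines were 16 members and below 0 were 15, against 35.4% and 25.9% of all genes. With the siRNA against CAV2, a caveolin of the cell membrane, the medians were 0.26 in A498 and -0.01 in 786O, and 0 members were past the limit on both arrays in either direction, against 0.998% of all genes higher and 1.83% lower. Above 0 in both lines were 26 of 62 members and below 0 were 2, against 38.7% and 32% of all genes, and 12 members were above 0.5 in both after the slide mean was subtracted. By limma 0 members passed in either treatment (1.19% of all genes rose and 0.921% fell with wogonin, 0% and 0.133% with the CAV2 siRNA), and 0 had an unadjusted p under 0.05, as did 20.7% of all genes with wogonin and 4.42% with the CAV2 siRNA.

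On the smaller design no member passed the limit on both arrays of a treatment, and limma called 0. For miR-143 the shares of all genes past the limit were 0.903% higher and 1.07% lower, for the GOLM1 siRNA 1.02% and 1.15%, and for miR-27b in the renal lines 1.15% and 1.51%. The limma shares of all genes were 0% and 0.0131%, 0% and 0.00654%, and 0.0982% and 0.314%. At an unadjusted p under 0.05 there were 4, 8 and 15 of 64 members, against 17.2%, 21.0% and 16.5% of all genes. Small values still ran one way. With miR-27b, 40 of 64 members were above 0 in both 786O and A498 and 0 below, against 35.5% and 29.6% of all genes, and with miR-143 39 were above 0 in both DU145 and PC3, against 32.2%. The members' medians were 0.18 and 0.08 with miR-27b and 0.05 and 0.15 with miR-143. All were below the median technical error of a single ratio (0.204 to 0.224), and members with shared probe stretches are not independent.

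With the siRNA against GOLM1, a Golgi membrane protein, 35 of 64 members were below 0 in both lines, against 32.4% of all genes. Their median lay at -0.34 in PC3 but at -0.02 in DU145. In PC3, 12 members (18.8%) lay below -0.5, against 5.35% of all genes on that array, and 7 of the 12 were H4 genes. HIST1H2AC was at -0.66 in PC3 and 0.04 in DU145. GOLM1 itself was at -4.15 in PC3 and -3.02 in DU145.

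Single arrays have no replicate, so their values carry no test. The highest and lowest members named are among those well above background in both channels, while the counts are over all members kept. With miR-24 in PC3, 29 of 62 members (46.8%) lay above 0.5, against 27.9% of all genes on that array, and 8 lay below -0.5, against 25.4% of all. H2B was the class with most of them, 14 of 17 genes with a median of 0.80, while the H4 median was -0.42. The highest members were HIST2H2AA4 (1.86) and HIST1H2AD (1.47), and the lowest HIST1H4J (-1.18) and HIST1H4E (-1.03). With miR-27b in PC3, 28 members (45.2%) lay above 0.5, against 19.7% of all genes, and the classes were in another order. The medians were 0.73 for H2A, 0.71 for H3, 0.37 for H4 and 0.17 for H2B, where 1 of 17 genes passed the limit.

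HIST1H4C (2.02) and HIST1H4L (1.71) were the highest members with miR-27b in PC3, and HIST2H2AA4 (-1.08) and HIST3H2A (-0.65) the lowest. HIST2H2AA4 thus lay at opposite ends of the family with miR-24 and miR-27b in the same line. With miR-23b in PC3 the median was 0.14, and HIST1H2AA (1.0) and HIST1H3C (0.60) stood highest, HIST1H4J (-1.13) and HIST1H2AL (-1.07) lowest. HIST1H4J lay low with miR-23b and miR-24 in PC3 but at -0.49 with miR-27b.

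With miR-375 in FaDu the median was 0.20, with 18 members above 0.5 and 0 below -0.5, against 25.4% and 24.4% of all genes on that array, and 11 of the 18 were H2B genes (class median 0.57). HIST3H2A (1.43) and HIST4H4 (1.16) were highest, and HIST1H1C (-0.47) and HIST1H4E (-0.41) lowest. With miR-29a in SAS the median was 0.06, and the range ran from HIST1H3A (-0.98) and HIST3H3 (-0.56) to HIST1H2BG (0.33) and HIST1H1A (0.40). HIST1H1A was above background on that array but failed the filter over the design.

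With CXCL10 in 786O the median was 0.10 at 12 h and -0.15 at 24 h. At 12 h the highest members were HIST4H4 (0.63) and HIST1H4J (0.31), and the lowest HIST1H1B (-0.16) and HIST1H2BK (-0.13). At 24 h 8 of 64 members (12.5%) lay below -0.5, against 3.45% of all genes on that array, and 3 of the 8 (HIST1H2APS1, HIST1H2BE and HIST3H2A, between -1.02 and -0.89) were not well above background in both channels. Of the rest, HIST1H1B (-0.83) and HIST1H2AL (-0.76) were lowest there, and HIST2H2AA4 (0.38) and HIST1H2BO (0.15) highest. With 1 array at each time, a change between the times was not tested.

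Genes of a class varied together to different degrees over the arrays, given as median correlations over pairs of genes, which share libraries and, for like probes, transcripts. On the 16 arrays of the larger design the median was 0.79 within H2B, 0.67 within H3, 0.32 within H2A, 0.31 within H4 and 0.10 within H1. Between H3 and H4, which form a tetramer in the nucleosome, it was -0.05 (range -0.67 to 0.96). That median pools both kinds of H4 probe. At its ends were HIST2H3A with HIST1H4F, read inside the coding sequence (-0.67), and HIST1H3B with HIST1H4C, read at the coding end (0.96). On the 8 arrays of the smaller design the median was 0.82 within H2B, 0.75 within H3, 0.75 within H4, 0.70 within H2A and 0.77 between H3 and H4. The closest pairs on the larger design included HIST1H4B with HIST1H4L (0.996), HIST1H3D with HIST1H3F (0.99) and HIST1H2BH with HIST1H2BO (0.99). Across classes, HIST1H1C was closest to HIST1H2BD (0.96), 2 genes known for polyadenylated forms.

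**Figure D4:**
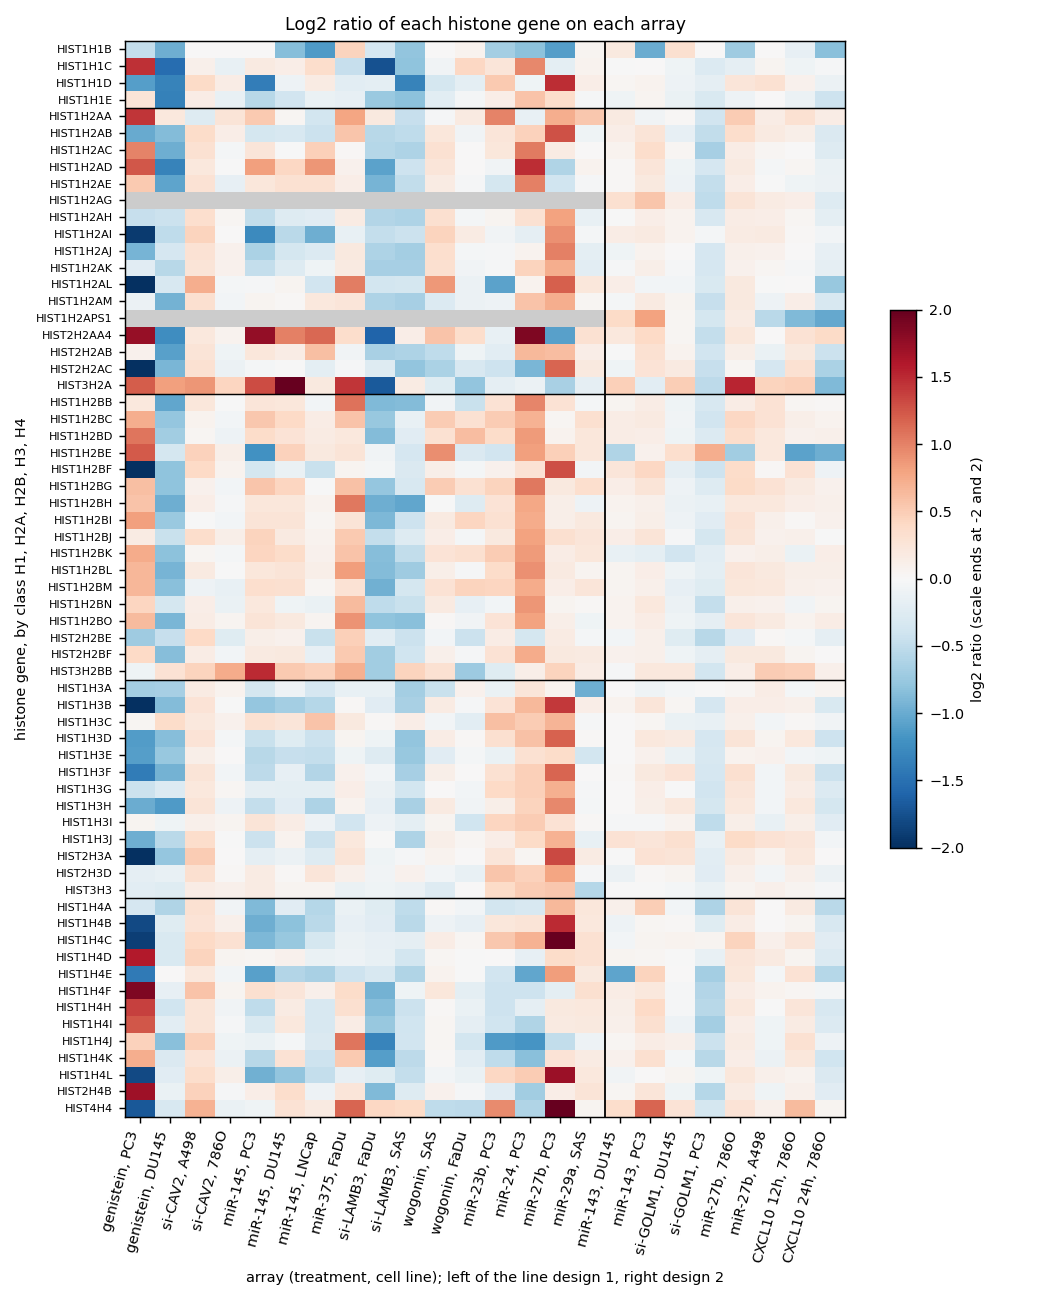
Log2 ratio of each histone gene (rows, by class) on each of the 24 arrays (columns), blue below 0 and red above 0, with the colour scale ending at -2 and 2 and grey for genes not kept or not on the design. Most H2B rows are red with genistein in PC3 and blue in DU145, and most H3 rows are blue in both.

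Several genes had a probe far behind the stem-loop end as well as one in or near the gene body, and these did not always move together. For HIST1H2AC the far probe lies 14301 bases from the body probe. With wogonin it was at 1.83 in SAS and 1.18 in FaDu, where the body probe was at 0.31 and 0.00, and with miR-29a at 1.74 against 0.01. With the LAMB3 siRNA it was at -1.61 in FaDu and 1.03 in SAS, where the body probe was at -0.56 and -0.62. With genistein it went the way of the body probe in both lines, at 2.36 in PC3 and -0.62 in DU145 against 0.99 and -0.98.

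For HIST2H2BE the probes lie 977 bases apart. With genistein in PC3 the far probe was at 2.27 and the body probe at -0.72, and with miR-27b in PC3 at -2.51 and 0.17. Their correlation over the 8 arrays that measured both was -0.57. The far probe of HIST2H2BE was dim, with a mean log2 signal of 4.8 against 6.5 for the body probe, which limits these values. For HIST1H2BK, with 8186 bases between them, the far probe was at -1.10 in A498 and -0.88 in 786O with the CAV2 siRNA, where the body probe was at 0.04 and -0.04. The far probe of this gene was also the brightest on the smaller design, so its values there belong to that probe. For HIST1H3H the stem-loop probe, 154 bases from the other, was at 0.94 in PC3 and -1.45 in DU145 with genistein, against -0.99 and -1.14 for the body probe.

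The control channel gave the family's levels in untreated or control cells, and 2 members stood apart by cell line. HIST1H4E had a log2 Cy3 signal of 2.04 to 4.85 on the 4 DU145 arrays, and of 12.39 to 14.36 on the other 14 arrays of the larger design and 11.44 to 13.26 on the other 6 of the smaller. After each array was scaled to its 75th percentile, DU145 lay 7.0 below the next line on the larger design and 9.28 below on the smaller. HIST1H1B, a linker H1 gene, was at 1.40 to 3.54 on the 6 arrays of A498 and PC3 of the larger design and at 10.19 to 11.41 on its other 10 arrays. On the smaller design it was at 1.33 to 2.54 on 3 arrays of these lines and at 9.26 to 10.87 on the other 5. Scaled to the 75th percentile, A498 and PC3 lay 6.68 below the other lines on the larger design and 6.53 below on the smaller, and the next largest such gap of a member was 2.66, for HIST1H2BE on the larger design. Other H4 genes whose probes hold the coding end, such as HIST1H4C and HIST1H4B, were bright in DU145 too. The log2 ratios of HIST1H4E in DU145 rest on these low signals, which were well above background in both channels on 1 of 4 arrays, that of miR-145. Of the ratios 2 were exactly 0, which the scanner software writes when both channels are below background.

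**Figure D5:**
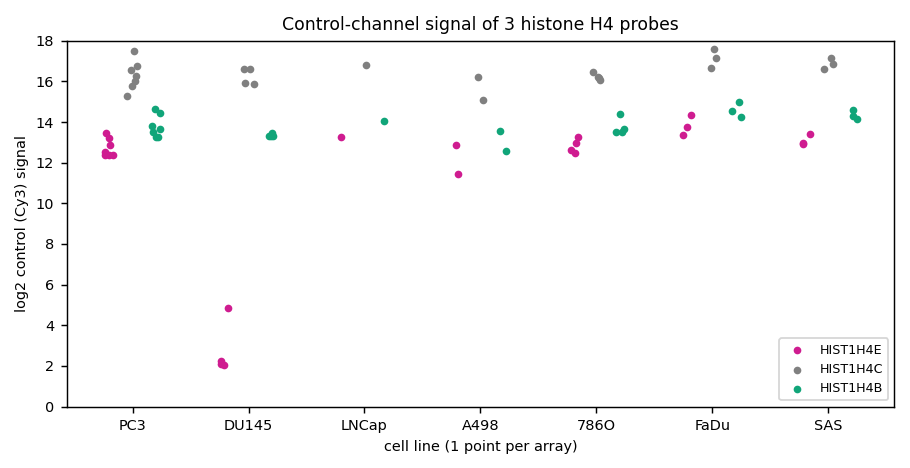
Log2 Cy3 signal of control cells for HIST1H4E, HIST1H4C and HIST1H4B by cell line, 1 point for each array. HIST1H4E lies between 2.04 and 4.85 in DU145 and above 11 in every other line, while HIST1H4C and HIST1H4B show no such gap.

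Promoters, taken from RefSeq on build GRCh38.p14 as the 250 bases before and 50 after each start, were found for 63 of the 70 genes. CCAAT on either strand was present in 84.1% of them, against 39.6% of 27242 promoters, and TATAAA in 66.7%, against 13.9%. The octamer ATGCAAAT or its complement ATTTGCAT was present in 41.3%, against 2.1% of all. It was found in 14 of 18 H2B promoters (77.8%), 11 of 15 H2A promoters (73.3%) and 1 of 11 H3 promoters (9.09%), and in 0 of 6 H1 and 0 of 13 H4 promoters. CCAAT was in 3 of 13 H4 promoters (23.1%) and in all those of the other classes. A match describes letters in this window only.

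The octamer windows printed here each lie between an H2A and an H2B gene that run apart from each other, so that a single copy is counted for both. The copy of HIST1H2AD and HIST1H2BF also lies in the promoter window of HIST1H3D and is the H3 match counted above. The octamer is in capitals.
HIST1H2AC and HIST1H2BC (chr6:26124031-26124060, plus strand): tgggcagagctATGCAAATgaggtatgaaa
HIST1H2AD and HIST1H2BF (chr6:26199394-26199423, minus strand): tgccctgtggtATGCAAATtaggtgattct
HIST2H2AC and HIST2H2BE (chr1:149886710-149886739, plus strand): ataaccaccttATGCAAATtagggctccga
With genistein in PC3, HIST1H2AC and HIST1H2BC were at 0.99 and 0.72, and in DU145 at -0.98 and -0.78. HIST1H2AD and HIST1H2BF were at 1.24 and -2.42 in PC3 and at -1.34 and -0.80 in DU145. In PC3 HIST1H2BF, which is read at its stem-loop, was the lowest H2B gene kept. HIST2H2AA4 and HIST1H2AA lay above HIST1H2AD there. HIST2H2AC and HIST2H2BE were at -2.37 and -0.72 in PC3 and at -0.92 and -0.46 in DU145.

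Genes around the family were read from 6 lists, for transcription and processing of histone mRNA (17 genes), histone chaperones (17), replication-independent histones (11), S phase (25), G2 and mitosis (15) and cell cycle exit (10). With genistein the largest shift was in genes of G2 and mitosis, whose median stood at -2.71 in PC3 and at -0.13 in DU145. In that list 3 of 15 genes fell by limma, where 3.77% of all genes did, and lay below -0.5 in both lines: PLK1 and AURKA, kinases of mitosis (-2.50 and -0.56, limma adjusted p = 0.0393, and -2.64 and -0.58, 0.0395), and KIF11, a spindle motor (-2.39 and -0.57, 0.0411). The 25 S phase genes had theirs at -0.65 and 0.19. CDKN1A, the p21 inhibitor of the cell cycle, rose (3.64 and 1.18, limma adjusted p = 0.0440). Past 0.5 in both lines and in the same direction were 2 higher genes and 1 lower gene of the processing list, 1 lower replication-independent histone gene, 1 higher S phase gene, 3 higher genes and 1 lower gene of cell cycle exit, and 0 histone chaperones. The lower processing gene was SRRT, which joins the cap-binding complex and is named for its role in this pathway beyond the 4 largest (-0.85 and -0.84, limma adjusted p = 0.0109).

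With the LAMB3 siRNA, 4 of 11 replication-independent histone genes fell and 0 rose by limma, where 5.18% of all genes fell and 3.43% rose. They were H1F0, the H1 of resting cells (-0.85 in FaDu and -1.57 in SAS, limma adjusted p = 0.0116), H1FX (-0.87 and -1.95, 0.0235), H2AFJ (-1.30 and -0.95, 0.0071) and H2AFX, whose phosphorylated form marks DNA breaks (-0.77 and -1.32, 0.0489). H1F0, H2AFJ and H2AFX were picked beyond the naming rule after their values were seen. GINS1, a replication factor (-1.57 and -1.40, limma adjusted p = 0.0215), CCNG2, a cyclin of cells that leave the cycle (-1.60 and -1.46, 0.0224), and BTG2, an inhibitor of proliferation (-1.18 and -1.59, 0.0140), also fell. Past 0.5 in both lines were further 3 higher S phase genes, 1 lower chaperone gene, 1 higher gene of G2 and mitosis and 2 higher genes of cell cycle exit, and 0 genes of the processing list.

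With miR-145, H2AFX was at -1.36, -0.77 and -0.96 in PC3, DU145 and LNCap (limma adjusted p = 0.0328). It was 1 of 2 replication-independent histone genes below -0.5 in all 3 lines, while H1F0 lay above 0.5 in all 3. By limma 1 of these 11 genes rose and 1 fell, where 3.3% of all genes rose and 3.22% fell. Of 10 cell cycle exit genes, 1 lay above 0.5 and 1 below -0.5 in all 3 lines, and by limma 1 fell and 0 rose. With wogonin, 5 of 25 S phase genes lay above 0.5 in both lines, where 5.53% of all genes did, of which MCM10, a replication factor, rose (1.33 and 1.02, limma adjusted p = 0.0450). Below -0.5 in both lines were 4 of 10 cell cycle exit genes and 2 of 11 replication-independent histone genes, where 4.42% of all genes were. By limma 2 and 0 genes of these lists fell, where 0.921% of all genes did. With the CAV2 siRNA and the 3 treatments of the smaller design that had 2 lines, limma called 0 genes of these lists, and at most 2 genes of a list lay past 0.5 in both lines in the same direction.

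Over the 16 arrays of the larger design, the median of the G2 and mitosis list correlated with the H3 median at 0.79, with the H2B median at -0.10 and with the H4 median at -0.20. The S phase list correlated with the H3 median at 0.71 and the list of histone chaperones at 0.80, and the list for transcription and processing of histone mRNA with the H4 median at 0.59. These values did not recur on the 8 arrays of the smaller design. There the H3 median correlated with G2 and mitosis at -0.31, with S phase at 0.01 and with the chaperones at -0.54. The H4 median correlated there with the processing list at -0.75. These arrays share lines and slides, and the values are a description. The G2 and mitosis median was 1.04 with miR-27b and 1.02 with miR-24 in PC3, the arrays with the highest members' medians, and -0.75 with miR-145 in PC3. The part of the share of dividing cells in the histone values was not tested.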

How the data were processed

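Expression was measured on 24 two-colour Agilent arrays, with RNA from treated cells in Cy5 and from control cells in Cy3. The authors deposited scanner output in which the log10 ratio (LogRatio) and the processed signal intensity had been background-subtracted and dye-normalized by Feature Extraction, version 10.7.3.1. The deposited LogRatioError and flags for background, saturation and outliers were used as given, and a table of the authors' processed log10 ratios held the same values (largest difference 0). The log10 ratio was multiplied by 3.3219 to give log2. Control spots were left out and spots of a probe were averaged. Each gene was read by its brightest probe on the design. A gene was kept when that probe was well above background in at least a share of 0.5 of all channels of the design. The number of arrays limits the precision.

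Calls by size needed a log2 ratio past 0.5 the same way on every array of a treatment. The mean over lines was tested against 0 with limma 3.58.1 (R 4.3.3) on all arrays of a design, 1 mean for each treatment, with Benjamini-Hochberg adjustment over all genes kept and a limit of 0.05. Treatments with 1 array were not tested. The limma step was tested on simulated data. Tables were handled with Python 3.11.15, pandas 2.3.3 and numpy 2.4.6, and figures drawn with matplotlib 3.10.9. The members, gene lists and motifs were chosen with earlier results of these data known. Named were all members called by limma, up to 5 each way with the largest mean past the limit in a treatment, the 2 highest and 2 lowest members above background on single arrays, 5 genes known for polyadenylated forms, and up to 4 list genes a treatment. Alternatives were normexp (offset 50) with loess, centring on the median of all genes, subtracting the mean of the other treatments on the slide, the mean over probes, no filter, a limit of 1.0, a fit of the treatment's own arrays, and leaving out each line. A marker of the prostate list is not reported here.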

Additional observations from a re-analysis of the deposited data

Results flagged for a closer look

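With genistein, 14 histone genes lay above 0.5 in PC3 and below -0.5 in DU145, so every array of one line moved one way and every array of the other the opposite way for these genes. The difference between the lines was not tested, since each line had 1 array. Of all genes kept, 542 of 14330 (3.78%) lay past the limits in opposite directions.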

How the results depend on the processing

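Among counts of members past 0.5 on every array, 91 of the alternative values stayed within 1.5 times the reported count and 21 did not. With normexp and loess, the genistein count of higher members was 0, the miR-145 count of lower members 0 and the wogonin count of lower members 0. With the slide mean subtracted, the LAMB3 siRNA had 30 lower members, the CAV2 siRNA 12 higher and 1 lower, genistein 0 higher, miR-145 0 lower, and wogonin, miR-143 and the GOLM1 siRNA 1 higher each. After centring, miR-145 had 2 higher and 2 lower members. With the mean over probes, genistein had 2 higher members and wogonin 1, and without the filter the CAV2 siRNA had 1 higher. With a limit of 1.0, genistein had 0 higher and 1 lower members, and the LAMB3 siRNA, miR-145 and wogonin had 0 lower. The limma counts, of which 53 stayed and 12 did not, became 2 for miR-145, 6 for the LAMB3 siRNA and 1 each for the GOLM1 siRNA and miR-27b in the renal lines with normexp, 9 for the LAMB3 siRNA with the slide mean subtracted, and 0 for genistein and for the LAMB3 siRNA in a fit of their own arrays. The causes of these changes were not tested, other than that a fit of fewer arrays has a less certain spread. With a line left out, the limma counts ran from 1 to 28 for genistein, from 0 to 1 for miR-145 and from 0 to 0 for the LAMB3 siRNA, with the lone array assumed to vary like the other treatments. The treatments' medians ran from -0.68 to 0.047 for genistein, -0.05 to 0.04 for miR-145, -0.53 to -0.45 for the LAMB3 siRNA, -0.04 to 0.08 for wogonin, -0.01 to 0.26 for the CAV2 siRNA, 0.05 to 0.15 for miR-143, -0.34 to -0.02 for the GOLM1 siRNA and 0.08 to 0.18 for miR-27b in the renal lines. No paired analysis was possible because each array already holds the treated and the control RNA of a line, and the result is a ratio. Low signal limits the ratios of HIST1H4E in DU145 and of HIST1H1B in PC3 and A498.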
